A study of Homo sapiens with 18 samples.

Results

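The acinar and ductal fate genes described here are 9 genes chosen by name as markers of the acinar and ductal lineages of the pancreas. They comprise the acinar transcription factors *PTF1A*, *NR5A2*, *RBPJL* and *BHLHA15*, the acinar and tip products *CPA1* and *GP2*, and the ductal products *CFTR*, *MUC1* and *CA2*. Of the 9 genes, 8 were listed at all 3 times among 21944 genes in the authors' deposited table of results, and *RBPJL* was not listed at any time. *PTF1A* and *BHLHA15* had low mean normalized counts, under 100, and the other 6 lay above that limit.

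Human pancreatic progenitors at day 19 of differentiation were detached with accutase and reseeded in 24-well plates coated with LN411, a laminin isoform of low adhesion, or with fibronectin (FN). RNA was collected 3, 6 or 24 h later from 3 samples on each matrix, which gave 6 groups and 18 samples. All 6 groups carried the NGN3-GFP reporter of the SA121 human embryonic stem cell line according to the growth protocol. The study likewise names NGN3-GFP as the source of the sequenced cells, although the cell line label reads HUES4. The labels name no other agent that differed between groups and no sort on *GP2*. The 18 samples contributed only through a mean normalized count over all samples and, for each time, the LN411 to FN ratio on a log2 scale with its standard error (SE). Values of single samples and the depth of each library were not analysed here, so the spread between replicates enters through the SE alone. The study describes the replicates as biological. The labels do not say whether the replicates came from separate differentiations, and p-values then measure only the spread between these samples.

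Tip cells of the developing pancreas give rise to acinar cells, which make and secrete digestive enzymes, whereas trunk cells give rise to ducts and to endocrine cells. *PTF1A* acts in a complex with a ubiquitous E protein and with *RBPJ* in progenitors or *RBPJL* in mature acinar cells, and this complex binds an E-box beside an RBPJ site in acinar genes. Duct cells secrete a bicarbonate-rich fluid, for which *CFTR* is the apical chloride channel and carbonic anhydrases supply bicarbonate. The labelled cell type was checked against its markers. The 6 progenitor markers used for this purpose (*PDX1*, *NKX6-1*, *SOX9*, *FOXA2*, *GATA6* and *GATA4*) were all listed, with mean normalized counts between 3040 and 20672. Some markers of liver and of stomach or intestine reached similar or higher levels, with 57268 for *TTR*, 27378 for *CLDN18*, 26676 for *AFP* and 20184 for *VIL1*. *APOA1* (13608) and *CDX2* (3556) lay within the range of the progenitor markers. The others lay below it, with 640 for *ALB*, 35.9 for *LGR5*, 24.1 for *SI*, 9.44 for *SOX2* and 9.05 for *CYP3A7*. At 24 h 2 of the 6 progenitor markers were higher on LN411, *PDX1* (log2 fold change 0.60, DESeq2 adjusted p = 1.70e-71) and *GATA4* (0.52), and 4 were not called. The share called was 33.3%, near the 29.5% of all genes tested at that time, many of which had far lower counts than these markers.

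Among the 9 genes, *CPA1*, *GP2* and *MUC1* were the 3 that were higher on LN411 at 24 h, and the sequence before their start sites is shown because PTF1 sites are read from such letters. The sequences are RefSeq promoters on GRCh38.p14, 5′ to 3′ on the strand of the gene, and capitals mark E-boxes (CANNTG) and the RBPJ-type motif (TGGGAA). For *CPA1* the longest stretch of the 250-base upstream window outside annotated exons is given (chr7:130380244-130380338, plus strand). For *MUC1*, which has 2 entries, the upstream-most is given (chr1:155192917-155193165, minus strand). The whole *GP2* window lies in the first exon of another annotated transcript. For it, 30 bases around the RBPJ-type motif and the nearest E-box are given (chr16:20327539-20327568, minus strand). No rule on the spacing of these motifs was applied.
CPA1: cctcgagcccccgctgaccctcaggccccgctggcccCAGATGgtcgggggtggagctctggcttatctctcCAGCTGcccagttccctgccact
GP2: aggagagaCACATGggTGGGAAattgcaat
MUC1: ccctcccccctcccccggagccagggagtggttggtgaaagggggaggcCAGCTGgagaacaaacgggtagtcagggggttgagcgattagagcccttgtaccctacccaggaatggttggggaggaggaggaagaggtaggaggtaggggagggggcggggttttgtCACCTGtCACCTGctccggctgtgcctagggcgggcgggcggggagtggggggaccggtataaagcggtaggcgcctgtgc
Each of the 3 windows held 3 E-boxes, counted on both strands. At least 1 E-box occurred in 61.8% of the 34943 upstream windows in the table. The share of windows with 3 or more was not counted, so the number per window has no background here. The *GP2* window also held TGGGAA, 2 bases downstream of an E-box with the letters CACATG, with its first base 39 bases before the RefSeq start. TGGGAA occurred on either strand in 20.9% of all windows, and 13.7% held both motifs. The letters of an NR5A2-type motif, AAGGTCA, occurred in 3.44% of all windows and in none of these 3. No motif overlapped another in the stretches shown, and a match of letters is a description only.

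At 24 h, 4 of the 8 listed genes passed an adjusted p-value of 0.05, 3 of them higher and 1 lower on LN411. *GP2*, *CPA1* and *MUC1* rose by 1.87-, 1.50- and 1.53-fold, and *CA2* fell by 35.3%. The background at that time was high, since 29.5% of the 19569 genes tested were called, 16.7% as higher and 12.8% as lower. It was higher still, 5439 of 13114, once genes averaging under 100 were left out. The 8 genes had a median log2 fold change of 0.30, between -0.63 for *CA2* and 1.35 for *PTF1A*, against 0.012 for all genes tested. At 3 h none of the 6 listed genes with an adjusted p-value was called and at 6 h none of 5, by the DESeq2 values or by the recomputed ones, and the unadjusted p-value was under 0.05 for 0 of 8 at either time. The background was 0.383% at 3 h and 8.23% at 6 h. Levels refer to the bulk culture, in which more cells expressing a gene and more RNA per cell cannot be told apart.

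**Figure D1:**
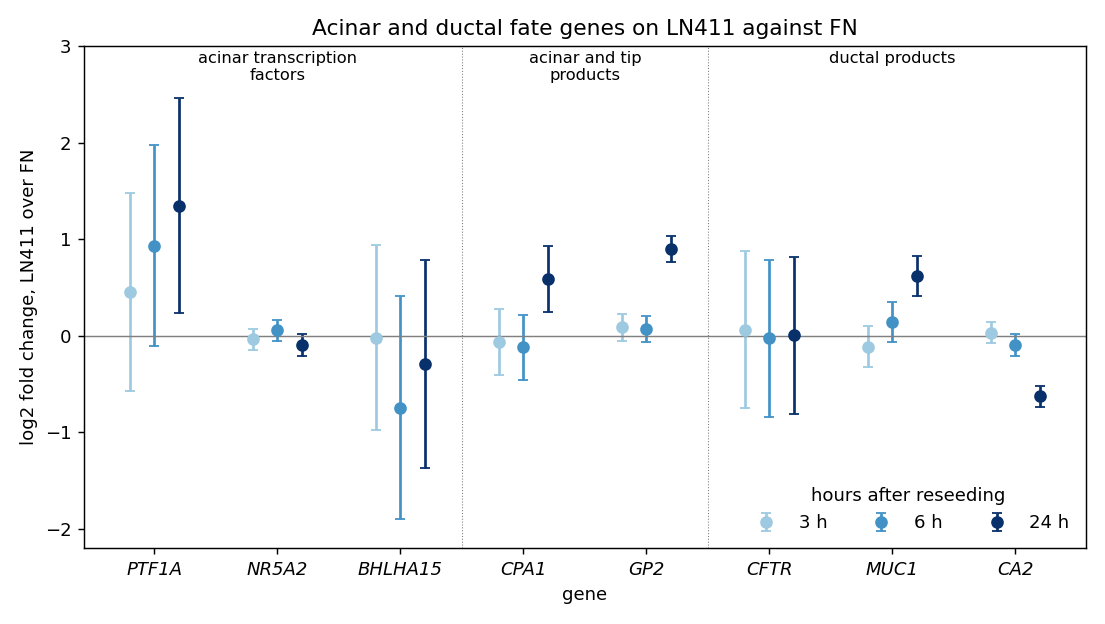
Log2 fold change of LN411 over FN (y axis) for the 8 listed genes (x axis) at 3, 6 and 24 h. Points are the deposited estimates from 3 samples a group and bars are 95% confidence intervals. At 24 h the intervals of *PTF1A*, *CPA1*, *GP2*, *MUC1* and *CA2* lie off 0, and those of *NR5A2*, *BHLHA15* and *CFTR* cross it.

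*PTF1A* (chromosome 10, 23192312 to 23194245, plus strand, GRCh38) encodes a DNA-binding subunit of PTF1, needed for pancreas formation and for acinar identity. Its mean normalized count was 12.5, and 84.5% of genes lay above it. Its log2 fold changes were 0.45 (SE 0.52) after 3 h, 0.93 (SE 0.53) after 6 h and 1.35 (SE 0.57) after 24 h. All 3 estimates lay above 0. The 24 h interval ran from 0.24 to 2.46, yet the gene did not pass the test, with an unadjusted p-value from the DESeq2 Wald test of 0.0173 and an adjusted p-value of 0.0567, between 0.0567 and 0.114 over the alternatives. At this level only a change of at least 2.60-fold could have been called at 24 h, and the gene was too low for an adjusted p-value at 3 and 6 h. The effect at 24 h exceeded that at 3 h by 0.90 (SE 0.77, adjusted p = 0.514), which was not detectable as a difference.

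*NR5A2* (chromosome 1, 200027614 to 200177420, plus strand) encodes a nuclear receptor that works beside PTF1 at acinar genes and is present in early pancreatic progenitors. It was well expressed, with a mean normalized count of 3011. On LN411 it measured -0.037 on the log2 scale relative to FN after 3 h, 0.057 after 6 h and -0.094 after 24 h, each with an SE of 0.057. None of these was called, and the adjusted p-value at 24 h was 0.227. The 24 h interval, -0.21 to 0.018, corresponds to 0.867- to 1.01-fold. A change of 1.10-fold would have been called at that time.

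*BHLHA15*, also known as MIST1 (chromosome 7, 98211439 to 98215457, plus strand), encodes a factor that scales up the secretory apparatus of acinar cells. Its mean normalized count was 10.8, the lowest of the 8. Its log2 fold changes of -0.020 (3 h), -0.74 (6 h) and -0.29 (24 h) came with SEs between 0.49 and 0.59. The interval at 24 h ran from -1.37 to 0.78 (adjusted p = 0.752). The gene overlaps *TECPR1* on the opposite strand over 834 bases. Since the library kit does not mark strand, reads of both genes cannot be told apart there. *TECPR1*, with a mean normalized count of 1467, was 0.35 higher at 24 h (adjusted p = 1.01e-06). *RBPJL* (chromosome 20, 45306840 to 45317824, plus strand), the acinar form of the RBPJ subunit, had no value at any time and is not described further.

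*GP2* (chromosome 16, 20309574 to 20327808, minus strand) encodes a membrane glycoprotein of zymogen granules that also marks pancreatic progenitors on their surface. It ranked 21 of 21944 genes by mean normalized count, 135959, and 40 per kilobase of its longest transcript. The log2 fold change was 0.085 at 3 h and 0.070 at 6 h, both with an SE of 0.069 and neither called. At 24 h it was 0.90 (SE 0.069, interval 0.77 to 1.04, adjusted p = 2.95e-37), a rise of 1.87-fold. Its SE was 1.59 times the median of the 200 genes nearest in level.

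*CPA1* (chromosome 7, 130380339 to 130388114, plus strand) encodes carboxypeptidase A1, a digestive enzyme that first marks multipotent tip cells. Its mean normalized count of 103 lay just above the limit of 100. The log2 fold change was -0.066 at 3 h and -0.12 at 6 h, with SEs of 0.17, and at 6 h the gene had no adjusted p-value. At 24 h it was 0.59 (SE 0.17, interval 0.25 to 0.93, adjusted p = 0.00355), a rise of 1.50-fold. Over the alternatives this adjusted p-value ranged from 0.00257 to 0.0280.

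*CFTR* (chromosome 7, 117287120 to 117715971, plus strand, in GENCODE v44) encodes the chloride and bicarbonate channel of duct cells. It was abundant, ranking 1462 of 21944 genes with a mean normalized count of 7496. Its log2 fold changes of 0.062 (3 h), -0.026 (6 h) and 0.0044 (24 h) were all close to 0. Each carried an SE of 0.41, so that the 24 h interval ran from -0.81 to 0.82, or from 0.571- to 1.76-fold (adjusted p = 0.997). By this test a difference between matrices at 24 h was therefore not detectable below 2.02-fold. The estimates at all times were far smaller in size than their SE, and the reason was not tested.

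The SE of *CFTR* was out of proportion to its level. Of the 200 genes nearest in mean normalized count, none had a higher SE at 24 h, their median was 0.043 and their highest 0.133, and *CFTR* stood at 9.71 times the median. Among the 7968 genes averaging 1000 normalized counts or more, only 2 had a higher SE averaged over the times. With 3 samples a group, such an SE corresponds to a coefficient of variation of about 35.2% between samples, against 1.15% from counting alone. For comparison, the same calculation gave 4.75% for *CA2* and 5.85% for *GP2*.

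**Figure D2:**
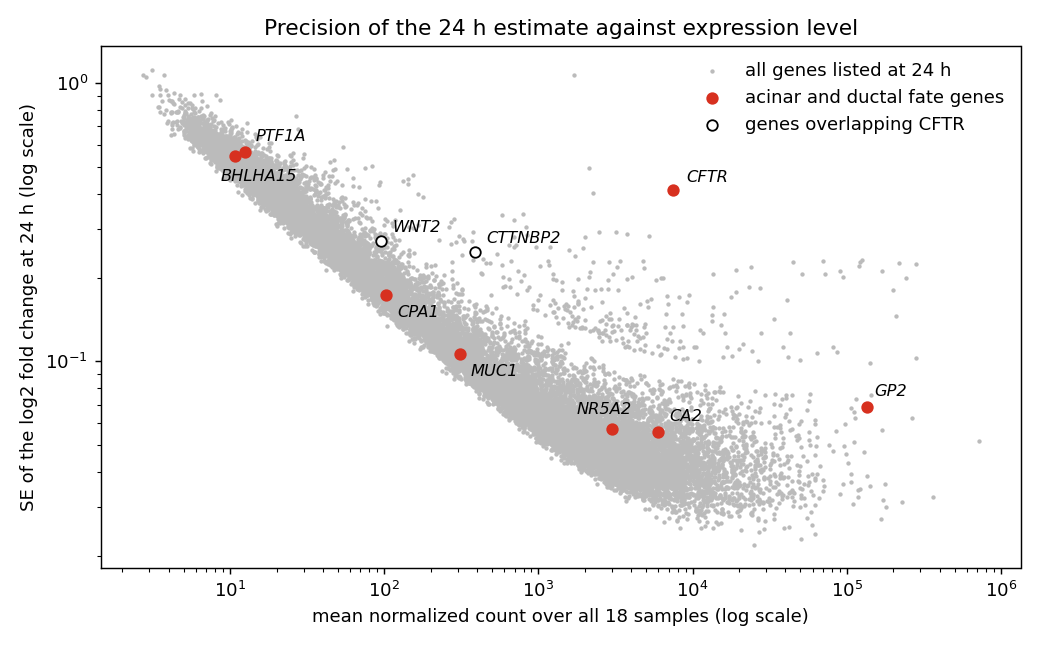
SE of the log2 fold change at 24 h (y axis, log scale) against the mean normalized count over 18 samples (x axis, log scale) for the 19569 genes listed at 24 h, in grey, with the 8 acinar and ductal fate genes in red and 2 genes that overlap *CFTR* as open circles. *CFTR* lies at 0.41, far above the genes of its level, while the other 7 lie within or at the edge of the cloud.

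The genes around *CFTR* were examined for the same feature. *CTTNBP2*, which overlaps the end of *CFTR* on the opposite strand over 5321 bases, had an SE of 0.25 at 24 h, 2.51 times the median of its own 200 neighbours in level, and 2 of these had a higher SE. *WNT2*, which overlaps its extended 5′ span, was at 1.29 to 1.44 times the median over the 3 times. The 7 other listed genes within 1 Mb, among them *MET*, *CAV1* and *LSM8*, stood between 0.771 and 1.26 times their medians over the 3 times, so that *WNT2* lay little above them. These neighbours were chosen after the values of *CFTR* were seen, and the source of the spread, which the deposited summaries cannot resolve to samples, was not tested.

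*MUC1* (chromosome 1, 155185824 to 155192916, minus strand) encodes a mucin of the apical membrane that lines ducts and also appears on acinar cells. Its mean normalized count was 308. The log2 fold change was -0.11 at 3 h (SE 0.11) and 0.14 at 6 h (SE 0.10), neither called. At 24 h it was 0.61 (SE 0.11, interval 0.41 to 0.82, adjusted p = 1.02e-07), a rise of 1.53-fold. Another gene model on the same strand shares 1449 bases with it and was not listed.

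*CA2* (chromosome 8, 85463968 to 85481493, plus strand) encodes carbonic anhydrase II, the cytosolic enzyme that supplies bicarbonate in duct cells. Its mean normalized count was 6005, and per kilobase it ranked 681, above *CFTR* at 2618. The log2 fold change was 0.033 at 3 h and -0.095 at 6 h, both with an SE of 0.056 and neither called. At 24 h it was -0.63 (SE 0.056, interval -0.74 to -0.52, adjusted p = 2.08e-27), a fall to 0.647-fold. *CA2* was thus the only one of the 8 genes called lower at 24 h, and among the ductal products it moved opposite to *MUC1*. It overlaps *CA3-AS1*, a listed non-coding gene, on the opposite strand over 948 bases. With this library kit, reads of both genes cannot be told apart there.

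Whether the effect of LN411 grew with time was tested as the difference between log2 fold changes of 2 times, adjusted over all genes listed at both. The effect differed between 6 and 24 h for 4 of 8 genes, *CPA1*, *GP2*, *MUC1* and *CA2*, against 12.8% of 18975 genes. Between 3 and 24 h the effect again differed for 4 of 8 and for the same genes, against 17.0% of 18820. The 24 h values enter both comparisons. Between 3 and 6 h none of 8 differed by this z-test on the DESeq2 estimates, nor at an unadjusted p-value under 0.05, against 0.257% of 19875 genes. From 6 to 24 h the change of the log2 fold change was 0.83 for *GP2* (SE 0.097), 0.71 for *CPA1* (SE 0.24), 0.47 for *MUC1* (SE 0.15) and -0.53 for *CA2* (SE 0.079). The differences of *CPA1* between 24 h and either earlier time, and of *MUC1* between 6 and 24 h, were lost when a t distribution with 12 degrees of freedom replaced the normal one (adjusted p = 0.116, 0.122 and 0.0860). *NR5A2* changed by -0.15 from 6 to 24 h (SE 0.081, adjusted p = 0.251) and *CFTR* by 0.030 (SE 0.59).

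**Figure D3:**
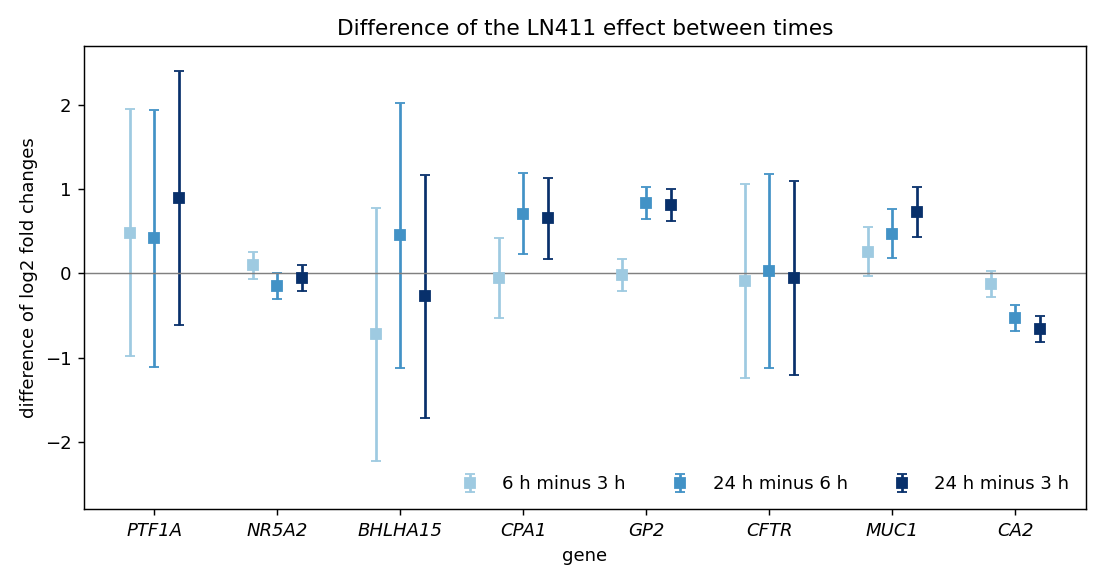
Difference between the log2 fold changes of LN411 over FN at 2 times (y axis) for the 8 listed genes (x axis), with 95% confidence intervals. For *GP2*, *CPA1*, *MUC1* and *CA2* both comparisons with 24 h lie off 0, and for all 8 genes the interval of 6 h minus 3 h includes 0.

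Other genes of the acinar programme were described from lists. Their counts at 24 h stand beside the 29.5% of all genes called at that time. That share rises with level, since 5439 of 13114 genes were called once those averaging under 100 were left out. All acinar and tip regulators and all ductal and trunk regulators lay above 100, so the larger share is the nearer background for them. No share matched to the level of each list was computed. Of 31 acinar product genes, 14 were listed at 24 h, 4 were higher, none was lower by the DESeq2 test and 10 were not called, with a median log2 fold change of 0.22. The share called was 28.6%, near that of all genes. The higher genes were the elastases *CELA3A* (0.74, adjusted p = 3.92e-05) and *CELA3B* (0.77, adjusted p = 0.0128), the ribonuclease *RNASE1* (0.47, adjusted p = 8.17e-20) and the trypsin inhibitor *SPINK1* (0.11, adjusted p = 0.00504). *CELA3B* was named after its values were seen, its call was lost under a t distribution (adjusted p = 0.0508), and as a near-identical copy of *CELA3A* it may share reads with it. The call of *SPINK1* was lost when trends with GC content and length were removed (adjusted p = 0.422). The 17 genes not listed include the lipase *PNLIP*, the amylase *AMY2A* and the chymotrypsins *CTRB1* and *CTRC*. *RNASE1* was the only one of the list called at 6 h (0.20, adjusted p = 0.00157), a call lost under a t distribution (adjusted p = 0.0538).

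Among 11 acinar and tip regulators, 7 were higher at 24 h, none was lower by the DESeq2 test and 4 were not called, a share called of 63.6%, with a median of 0.34. They included *GATA4* (0.52, adjusted p = 1.12e-20), a tip and acinar factor, *XBP1* (0.58, adjusted p = 1.79e-18), a regulator of the secretory pathway, and *MECOM* (0.18, adjusted p = 5.00e-07). *GATA4*, *FOXA2* and *GATA6* of this list were also among the progenitor markers. The weakest calls, named after their values were seen, were *NR0B2* (0.53, adjusted p = 0.0154) and *MYC* (0.44, adjusted p = 0.0176). Neither passed an adjusted p-value of 0.01. Their unadjusted Wald p-values (0.00363 and 0.00424) exceeded that of *CELA3B* (0.00289), whose call was lost under a t distribution, so that these calls do not hold there either. Of the 4 partners in the PTF1 complex, the E protein gene *TCF4* was lower (-0.34, adjusted p = 9.18e-05), and *RBPJ* had a value of 0.033 (adjusted p = 0.737). Of 9 targets of MIST1 in the secretory apparatus, 4 were higher, 1 was lower and 4 were not called, a share called of 55.6%. The vesicle GTPase *RAB26* rose most of these (1.01, adjusted p = 8.49e-14), followed by the gap junction gene *GJB1* (0.62), the chaperone *DNAJB9* (0.28) and *RAB3D* (0.20, named after its values were seen). *ATP2C2* had a value of -0.24, and its call, like that of *RAB3D*, was lost under a t distribution and at an adjusted p-value of 0.01.

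Of 9 ductal and trunk regulators, 1 was higher, 4 were lower and 4 were not called at 24 h, a share called of 55.6%, with a median of -0.13. *PROX1* was higher (0.14), and *HHEX* (-0.30), *GLIS3* (-0.41), *FOXJ1* (-0.19) and *ONECUT2* (-0.13, named after its values were seen, with the call lost under a t distribution and with GC content and length trends removed) were lower. Of 22 ductal products, 19 were listed at 24 h, with 7 higher and 6 lower, a share called of 68.4%, and a median of -0.0075. The trefoil factor *TFF3* (1.13, adjusted p = 2.47e-18), the annexin *ANXA4* (0.34) and *CD24* (0.26) had the smallest p-values among the higher genes. The apical membrane protein *PROM1* (-1.19, adjusted p = 7.79e-156), the ciliary gene *DCDC2* (-1.44, adjusted p = 8.44e-150) and osteopontin, *SPP1* (-1.35, adjusted p = 2.73e-145), had them among the lower ones. *CA2* and *MUC1*, which moved in opposite directions, thus lay beside a list of ductal products with calls on both sides.

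The genes closest in role to the 3 ductal products were taken in turn. Of 21 genes of duct ion and bicarbonate transport, 20 were listed at 24 h, with 3 higher, 5 lower and 12 not called, which makes 8 of 20 called. The anion exchanger *SLC26A3* (0.64, adjusted p = 4.51e-81), the scaffold *PDZK1* (0.80) and the chloride channel *CLCN2* (0.24) were higher. Ezrin, *EZR* (-0.30), the adenylyl cyclase *ADCY6* (-0.18) and the kinase *STK39* (-0.22) were lower, as were *SLC12A2* (-0.18, lost under a t distribution) and *SLC9A3R2* (-0.23), both named after their values were seen. Of the other 14 carbonic anhydrases, 11 were listed, of which 18.2% were called, *CA14* (0.44) and *CA8* (0.55, lost under a t distribution) were higher and none was lower by the DESeq2 test, so that *CA2* was the only listed carbonic anhydrase called lower. Of 13 other mucins, 5 were listed and 4 called, *MUC13* (0.64), *MUC4* (0.66) and *MUC15* (0.91) as higher and *MUC16* (-0.43) as lower. Of these, only *MUC13* kept its call under a t distribution, as *MUC1* did.

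**Figure D4:**
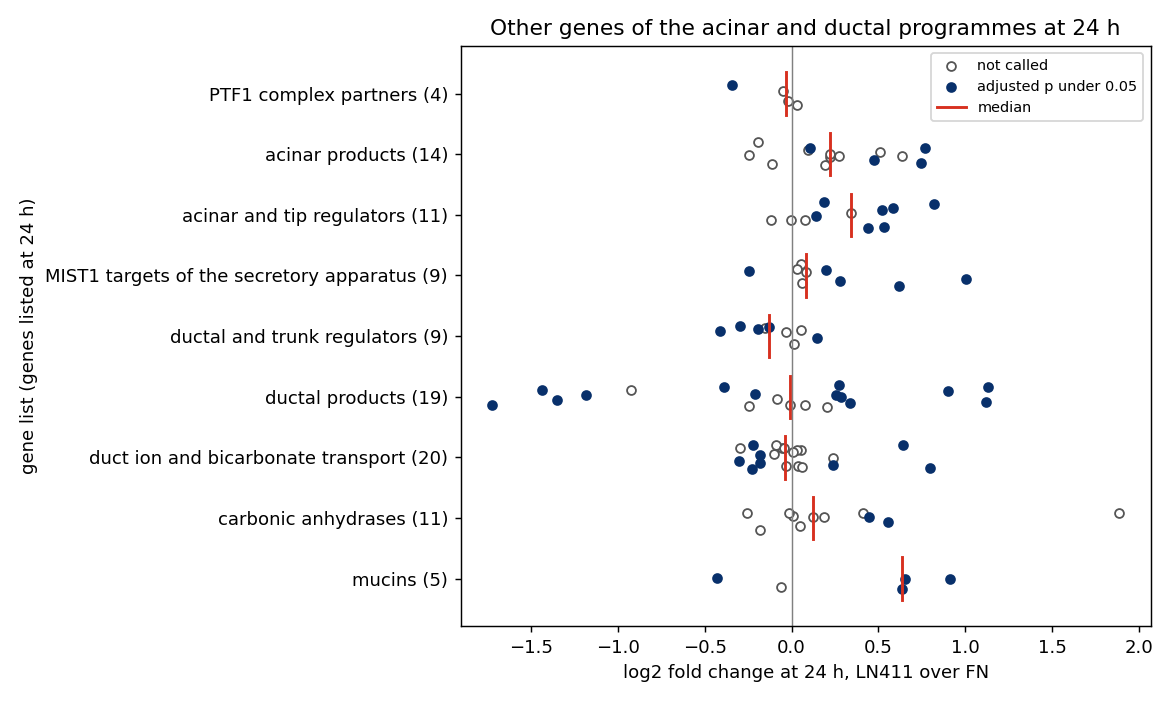
Log2 fold change of LN411 over FN at 24 h (x axis) for the genes of 9 lists (y axis, with the number listed), 1 point a gene, filled where the adjusted p-value was under 0.05, with the median of each list as a red line. Acinar and tip regulators have 7 filled points above 0 and none below, and ductal products have filled points on both sides.

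Markers of other cells that the culture could hold also moved at 24 h, and a few earlier. Of 8 endocrine genes 7 were higher at 24 h, with a median of 1.73, among them *NEUROG3* (2.54), *NKX2-2* (2.31) and *INSM1* (1.92). *NKX2-2* was already called at 6 h (0.69, adjusted p = 0.0155), a call lost under a t distribution. Of 4 listed liver genes 3 were higher (*APOA1* 0.72, *AFP* 0.40, *TTR* 0.22), with the call of *TTR* lost under a t distribution (adjusted p = 0.0613), with GC content and length trends removed and at an adjusted p-value of 0.01. Of 6 intestine or stomach genes 3 were higher (*CDX2* 0.91, *CLDN18* 0.95, *SI* 1.44) and 1 was lower (*VIL1* -0.24). *CDX2* was called at 6 h (0.53, adjusted p = 2.85e-22). It was also called at 3 h, at 0.21 with an adjusted p-value of 0.0255, which was lost under a t distribution (adjusted p = 0.626). Of 7 listed mesenchyme genes 2 were higher (*COL1A2* 0.27, *PDGFRA* 0.49) and 2 were lower (*VIM* -0.91, *PDGFRB* -0.66). The 2 listed endothelial genes had mean normalized counts of at most 75.0 and were not called. The part of such cells in the changes of *GP2*, *CPA1*, *MUC1* and *CA2* was not tested.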

How the data were processed

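Bulk RNA sequencing of poly(A) RNA from 18 samples was used. The authors demultiplexed the reads with bcl2fastq, aligned them with STAR 2.7.2d to GRCh38.p13, counted reads per gene with GENCODE v32 and used DESeq2 1.34.0 for the contrast of LN411 and FN at each time. The model formula and the strand used in counting are not given in the sources used here. The library kit does not mark strand.

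The single deposited table holds the authors' own comparisons, with no values per sample. The mean normalized count is the authors' signal for a gene, averaged across the 18 samples. The fold change and its SE were deposited on a log2 scale. The Wald statistic is a deposited score, the quotient of both. The p-value and adjusted p-value are the authors' two-sided values, the latter by Benjamini-Hochberg after independent filtering, which left genes under a mean normalized count of 17.1 at 3 h and 108 at 6 h without one.

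From these, p-values, adjusted p-values, 95% normal intervals and differences between times (difference over the root of the summed squared SEs) were recomputed over all genes in Python 3.11.15 (scipy 1.17.1, numpy 2.4.6, pandas 2.3.3). The recomputed calls numbered 67, 1065 and 5780 at 3, 6 and 24 h, as in the deposited table. Times were treated as independent. A gene was called at an adjusted p-value under 0.05. The steps were run on effects simulated with the deposited SEs and independent normal noise. That run checks the calculation only. It cannot test the normal distribution, the SEs or the independence of times, which it takes as given. Library depth is unknown, and the SE gives the precision. Samples were grouped by matrix and time from the labels. Named genes are the 9 genes and, from each list, up to 3 in each direction with the smallest p-values among those called at 24 h. Some results for single genes are left out of the lists and not reported here. The members and lists were chosen with earlier results of these data known. *NHERF1* and *NHERF2* of the transport list were matched by Ensembl identifier under their older symbols, *SLC9A3R1* and *SLC9A3R2*. Gene positions come from GENCODE v44 (GRCh38). Promoters are from RefSeq on GRCh38.p14. Alternatives are named in the closing section.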

Additional observations from a re-analysis of the deposited data

Results flagged for a closer look

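The effects of LN411 over FN that differed between times by the z-test of the difference were those of 4 genes. Between 6 and 24 h the log2 fold change moved by 0.83 for *GP2* (adjusted p = 1.39e-15), 0.71 for *CPA1* (adjusted p = 0.0320), 0.47 for *MUC1* (adjusted p = 0.0163) and -0.53 for *CA2* (adjusted p = 1.06e-09), with p-values from the DESeq2 estimates adjusted over 18975 genes. Between 3 and 24 h it moved by 0.82 for *GP2* (adjusted p = 3.68e-15), 0.66 for *CPA1* (adjusted p = 0.0446), 0.73 for *MUC1* (adjusted p = 2.86e-05) and -0.66 for *CA2* (adjusted p = 5.93e-15), adjusted over 18820 genes. Both comparisons share the 24 h samples.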

How the results depend on the processing

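The alternatives were an adjusted p-value under 0.01, a t distribution with 12 degrees of freedom, no independent filtering, a filter at a mean normalized count of 100, a limit of 0.5 on the size of the log2 fold change, centring on the median, and removal of trends with GC content and length. Under each of the 7, 4 genes were called at 24 h, and *GP2*, *CPA1*, *MUC1* and *CA2* kept their direction and call. The number of genes whose effect differed between 6 and 24 h was 2 in place of 4 at an adjusted p-value under 0.01 and 2 under the t distribution. *CFTR* at 24 h, not called in any setting, moved from 0.0044 to -0.016 when centred on the median and to -0.0058 with GC content and length trends removed, both far inside its SE of 0.41. Of the other values 135 for single genes kept their direction and side of the threshold. Among the other named calls 376 such values kept the call, 82 lost it and none turned. The t distribution lowered the calls over all genes to 8, 338 and 4409 at 3, 6 and 24 h. No paired analysis was possible because the deposited table holds no values per sample, and leaving out single replicates was not possible for the same reason. At 24 h the SE corresponds to a coefficient of variation between samples of 48.1% for *PTF1A*, 46.5% for *BHLHA15* and 35.2% for *CFTR*, against 28.3%, 30.4% and 1.15% from counting alone.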

Other observations

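Over the lists described, 14 genes were called at both 6 and 24 h, and 3 of them in opposite directions, as were 43 of the 750 genes called at both times in the whole table (5.73%). All 3 belong to the ductal lists, but so did most of the 14. *CD24*, *DCDC2*, *EZR*, *HHEX*, *ONECUT2* and *SPP1* of these lists kept their direction. The keratin gene *KRT19*, a duct marker, was 0.11 higher on LN411 at 6 h and -0.39 at 24 h, a difference of -0.50 (SE 0.046, adjusted p = 3.44e-25 by the z-test on the DESeq2 estimates). *FOXJ1*, a regulator of motile cilia, was 0.47 higher at 6 h and -0.19 at 24 h, a difference of -0.66 (SE 0.069, adjusted p = 1.20e-19). The anion exchanger *SLC26A3* was -0.10 at 6 h and 0.64 at 24 h, a difference of 0.74 (SE 0.047, adjusted p = 2.53e-53). The 6 h calls of *KRT19* and *SLC26A3* were lost under a t distribution (adjusted p = 0.118 and 0.145) and at an adjusted p-value of 0.01. That of *FOXJ1* was kept in both settings. The 6 h call of *KRT19* was also lost when centred on the median (adjusted p = 0.0910) and with GC content and length trends removed (adjusted p = 0.382). That of *SLC26A3* was also lost without independent filtering (adjusted p = 0.0525). These 3 genes were named after their values were seen. *DCDC2* and *SPP1* were already called lower at 6 h, at -0.18 and -0.17, and *XBP1* and *RNASE1* higher, at 0.22 and 0.20, and these 4 calls were lost under a t distribution.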
